A study of Mus musculus with 24 samples.

Results

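The activity effector genes described here are 10 genes whose transcripts are known to follow neuronal activity: Arc, Homer1, Npas4, Nptx2, Rheb, Rgs2, Plk2, Ptgs2, Inhba and Nrn1. Their products act at or near synapses, except that Npas4 is a transcription factor. They were chosen by gene symbol from the 49568 symbols counted in each library, all 10 were measured in every library, and all 10 passed the filter on low counts. Poly(A) RNA was sequenced from the hippocampus of Aged male mice on a C57-Bl/6J background, 21 to 23 months old, 1 mouse per library and 24 libraries. WT mice were standard-housed (WTSH) or enriched (WTEE), and MSK1 KD mice, homozygous for a knock-in point mutation that leaves the MSK1 protein without kinase activity, were likewise standard-housed (KDSH) or enriched (KDEE). Enriched mice entered large cages with a running wheel, tubes, toys and a ladder at 18 months of age. The mutation is present in every cell from conception, the WT and MSK1 KD mice came from separately kept lines, and the mice had performed no behavioural test. Enriched cages held more mice than standard cages, so that group size, running and novelty cannot be told apart. The study left out WTSH mice 4 and 7 and KDSH mouse 6, and the values below cover the remaining 21 mice (WTSH n = 4, WTEE n = 6, KDSH n = 5, KDEE n = 6) unless these 3 are named.

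When a neuron fires and calcium enters, transcription factors that are already present, CREB among them, switch on a first set of immediate early genes within minutes. Part of this set encodes further transcription factors such as Fos and Egr1. The rest, called effectors, encodes proteins that act directly on synapses, and MSK1 is a nuclear kinase that phosphorylates CREB and histone H3 after such signals. Of the genes described here, Arc drives the internalization of AMPA receptors, and a short form of Homer1 (Homer1a) uncouples the scaffold that ties metabotropic glutamate receptors to the postsynaptic density. Npas4 is, unlike the others, a neuron-specific transcription factor, one that shapes inhibitory synapses, and Nptx2 is a secreted pentraxin that gathers AMPA receptors. Rheb is the small GTPase that activates mTOR, Rgs2 shortens G protein signalling, and Plk2 is a kinase that weakens synapses after prolonged firing. Ptgs2 (COX-2) makes prostaglandins, Inhba encodes the subunit of activin A, and Nrn1 (neuritin) is a membrane-anchored protein that promotes neurite and synapse growth. In tissue RNA, fewer cells of a type and less RNA per cell cannot be told apart.

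Many activity effectors carry sites for CREB close to their start. Of the 10 genes, 7 matched a RefSeq promoter on GRCm38.p6, 8 promoters in all, and 3 are shown, picked after the values were seen: those of Homer1 and Inhba, the pair whose levels moved together between mice, and that of Plk2, which holds the full palindrome. Each line gives the 250 bases before the start site, 5′ to 3′ on the gene's own strand, and capitals mark the short site TGACG or the full site TGACGTCA. None of these stretches overlaps an annotated exon.
Homer1, chr13:93303507-93303756, plus strand: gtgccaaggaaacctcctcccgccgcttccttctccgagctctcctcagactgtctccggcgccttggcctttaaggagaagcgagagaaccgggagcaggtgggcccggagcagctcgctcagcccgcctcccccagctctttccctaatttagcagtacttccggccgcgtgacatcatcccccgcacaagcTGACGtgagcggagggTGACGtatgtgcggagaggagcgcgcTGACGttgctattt
Plk2, chr13:110394794-110395043, plus strand: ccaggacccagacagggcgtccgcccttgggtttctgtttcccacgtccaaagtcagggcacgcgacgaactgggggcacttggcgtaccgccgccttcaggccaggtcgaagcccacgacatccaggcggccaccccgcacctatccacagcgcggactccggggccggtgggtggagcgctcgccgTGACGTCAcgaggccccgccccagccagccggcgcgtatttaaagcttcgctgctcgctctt
Inhba, chr13:16011601-16011850, plus strand: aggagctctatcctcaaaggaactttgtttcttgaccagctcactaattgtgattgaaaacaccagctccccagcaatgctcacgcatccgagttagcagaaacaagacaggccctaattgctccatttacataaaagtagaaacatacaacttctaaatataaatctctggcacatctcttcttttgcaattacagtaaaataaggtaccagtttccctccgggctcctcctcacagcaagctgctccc
The Homer1 stretch held 3 short sites on its own strand, with first bases at −56, −40 and −14 from the start. The Plk2 stretch held the full site from −62 to −55, which reads the same on both strands and therefore contains the short site on each. The Inhba stretch held neither, and had the letters TATAAA at −91. Among the other matched promoters, Npas4 and Rgs2 held 2 short sites each, Rheb held 1, and Ptgs2 and a second Homer1 start held none. Searched on both strands in 32851 mouse promoters of this length, TGACG was found in 17.8%, TGACGTCA in 1.55%, TATAAA in 12.4% and the CArG box in 1.47%. None of the 8 promoters searched held the CArG box, and a match of letters is a description, not a site shown to be bound.

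Counts on genes ranged from 27410239 to 71907130 (median 47549989) over the 21 libraries, and the least counted member, Inhba, still had 62.6 to 206 normalized read counts per mouse. Normalized read counts are the raw counts after TMM scaling, brought to the average library. Structural RNA took 0.0354% to 2.57% of the counts in these libraries, and 5.59% to 23.2% in the 3 left out. The labelled tissue showed its markers, with the 6 excitatory neuron markers summing to between 5699 and 8452 CPM. Rps6ka5, the gene of MSK1, had 1119 ± 101 normalized read counts in WTSH, 1043 ± 190 in WTEE, 1158 ± 21.9 in KDSH and 1139 ± 27.5 in KDEE (SD), which does not check the genotype, since the mutation is a point mutation. WTEE mouse 10 stood apart, with 665 normalized read counts of Rps6ka5 where the other 20 mice had 1016 to 1212. For several results below, values without this mouse are given as well.

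Counted per kilobase of exon, the members spanned a wide range of levels. Nrn1 was the most abundant at 70.6 ± 4.51 CPM per kilobase (SD over 21 mice), followed by Arc at 65.7 ± 16.6 and Plk2 at 38.8 ± 2.79. Rheb (11.2), Rgs2 (9.69), Nptx2 (9.37), Homer1 (7.48), Npas4 (5.76) and Ptgs2 (4.65) formed a middle range, and Inhba was far lower at 0.375 CPM per kilobase. Nrn1 was above Arc in only 12 of 21 mice and Rgs2 above Nptx2 in 14 of 21, so these neighbours did not differ beyond their spread. Npas4 was above Ptgs2 in 15 of 21, Homer1 above Npas4 in 17 and Nptx2 above Homer1 in 18. In all 21 mice Plk2 lay above Rheb, Rheb above Rgs2 and Ptgs2 above Inhba, and in 20 of 21 Arc lay above Plk2. Of the exon bases of Nrn1, 501 (22.3%) are shared with Fars2 on the opposite strand, and as strand was not used in the counting its level is uncertain. The other 9 shared no exon base with another gene. The short and long transcripts of Homer1 were counted together.

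**Figure D1:**
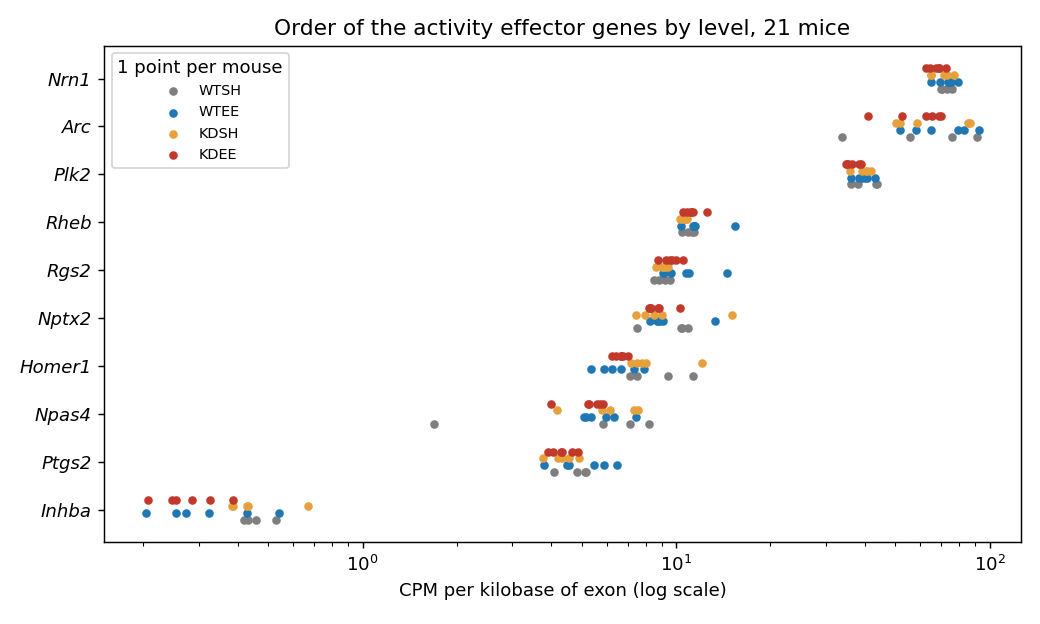
Level of each activity effector gene in CPM per kilobase of exon (log scale), 1 point per mouse, coloured by group. Nrn1 and Arc overlap at the top, with a far wider spread for Arc (33.9 to 92.4), and Inhba lies apart at the bottom (0.204 to 0.67).

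The members differed widely in how far mice of 1 group lay apart. Npas4 and Arc had the widest spread, with an SD of log2 CPM within groups of 0.49 and 0.40, above 98.8% and 99.1% of the genes of similar expression (20187 genes split by mean level into 10 equal bins). For Inhba the SD was 0.37 (76.3%), for Nptx2 0.27 (92.6%) and for Homer1 0.23 (88.8%). At the other end, Nrn1 (0.087) and Plk2 (0.093) varied less than most genes of their level, at 18.9% and 23.0%. Rheb, Rgs2 and Ptgs2 lay between, with SDs of 0.12, 0.15 and 0.19.

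Arc varied 2.73-fold between the lowest and the highest of the 21 mice. WTSH mice 2, 5, 19 and 23 had 13424, 4978, 8169 and 11180 normalized read counts. The 6 WTEE mice ranged from 7590 through a median of 10593 to 13578. KDSH mice 1, 3, 8, 18 and 24 had 8634, 12735, 7620, 7375 and 12556, and the 6 KDEE mice ranged from 6000 through 9393 to 10302. All groups overlapped, and both the lowest mouse (WTSH 5) and the second highest (WTSH 2) were WT standard-housed. The log2 fold change was 0.16 ± 0.23 (SE) for WTEE against WTSH (adjusted p = 0.796, edgeR) and −0.15 ± 0.22 for KDEE against KDSH (adjusted p = 0.772). Without WTSH mouse 5 the WT value was −0.05, so its sign rested on that mouse.

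Npas4 spread still more, 4.85-fold from the lowest mouse to the highest. WTSH mice 2, 5, 19 and 23 had 1632, 337, 1160 and 1414 normalized read counts. The WTEE mice ranged from 1012 through a median of 1124 to 1483, and KDSH mice 1, 3, 8, 18 and 24 had 1155, 1227, 830, 1464 and 1507. The KDEE mice ranged from 793 through 1078 to 1161. The lowest mouse was again WTSH 5 and the highest WTSH 2, and all groups overlapped. The log2 fold change was 0.05 ± 0.26 for WTEE against WTSH (adjusted p = 0.953, edgeR), which became −0.26 without WTSH mouse 5, and −0.24 ± 0.24 for KDEE against KDSH (adjusted p = 0.672).

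Homer1 was the member with the clearest separation by housing. WTSH mice 2, 5, 19 and 23 had 4115, 6529, 4320 and 5441 normalized read counts, and the WTEE mice ranged from 3073 through a median of 3718 to 4551. KDSH mice 1, 3, 8, 18 and 24 had 4122, 4617, 6943, 4308 and 4485, and the KDEE mice ranged from 3584 through 3829 to 4055. The MSK1 KD groups did not overlap, as every KDEE mouse lay below every KDSH mouse, which held downward for 0.936% of all genes tested. Of the 12 enriched mice of both genotypes, 10 lay below the lowest of the 9 standard-housed mice, and the exceptions were WTEE mice 16 and 21. Homer1 in WTEE was 0.741 times its level in WTSH (log2 fold change −0.43 ± 0.14 SE, 95% interval −0.72 to −0.15, unadjusted p = 0.00498, adjusted p = 0.651, edgeR). In KDEE it was 0.78 times its level in KDSH (log2 fold change −0.36 ± 0.13, unadjusted p = 0.0118, adjusted p = 0.377, edgeR). Averaged over genotypes the log2 fold change for enriched against standard housing was −0.40 ± 0.095 (adjusted p = 0.174, edgeR), which did not pass the threshold on adjusted p.

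The size of the Homer1 difference rested in part on 2 standard-housed mice. WTSH mouse 5 and KDSH mouse 8 had 6529 and 6943 normalized read counts, and without both the averaged log2 fold change was −0.24 (unadjusted p = 0.00242, adjusted p = 0.449, edgeR). Without KDSH mouse 8 alone the log2 fold change in MSK1 KD mice was −0.20, and without WTSH mouse 5 that in WT mice was −0.29. Homer1 also moved with the share of structural RNA between mice (Pearson's r = −0.59, permutation p = 0.00505, adjusted over 180 relations 0.156; Spearman's rho = −0.60, adjusted permutation p = 0.15), and r was −0.56 without the 2 mice farthest from the median share. With that share as a covariate the log2 fold change was −0.24 in WT mice (unadjusted p = 0.0786, edgeR), −0.35 in MSK1 KD mice and −0.29 averaged over genotypes (adjusted p = 0.472, edgeR).

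Inhba showed the same housing order at a much lower level. WTSH mice 2, 5, 19 and 23 had 133, 163, 128 and 140 normalized read counts, and the WTEE mice ranged from 62.6 through a median of 91.5 to 166. KDSH mice 1, 3, 8, 18 and 24 had 132, 131, 206, 118 and 119, and the KDEE mice ranged from 63.6 through 82.9 to 119. Of the 12 enriched mice, 9 lay below all 9 standard-housed mice, and the exceptions were WTEE mice 17 and 21 and KDEE mouse 20. The log2 fold change was −0.69 ± 0.22 (SE) for KDEE against KDSH (95% interval −1.14 to −0.24, unadjusted p = 0.00441, adjusted p = 0.35, edgeR). In WT mice it was −0.45 ± 0.23 (unadjusted p = 0.0596, adjusted p = 0.651, edgeR), and averaged over genotypes −0.57 ± 0.16 (adjusted p = 0.179, edgeR). Without WTEE mouse 10 the value in WT mice was −0.34. Without WTSH mouse 5 and KDSH mouse 8 the averaged value was −0.44 (adjusted p = 0.449).

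Markers of other cell types also differed by housing, though the ranges of their summed levels overlapped. Averaged over genotypes, the oligodendrocyte markers Mbp, Mog, Mag and Cnp lay higher with enrichment (4 of 4, median log2 fold change 0.25), as did 5 of 5 blood markers (1.46) and 7 of 7 choroid plexus markers (2.32), with an unadjusted p under 0.05 for 4, 5 and 6 of them, beside 18.9% of all genes, and none called. In the same comparison 6 of 6 interneuron markers lay higher with enrichment (median log2 fold change 0.19). Of these, 3 had an unadjusted p under 0.05 (edgeR), and none was called. The summed level of the 4 oligodendrocyte markers ranged from 3401 to 4930 CPM in WTSH, 3753 to 4855 in WTEE, 3125 to 4410 in KDSH and 3851 to 4813 in KDEE. The medians were 3539, 4543, 3485 and 4753 CPM. Blood markers summed to 56.1 to 72.8 CPM in WTSH, 56.2 to 392.5 in WTEE, 37.0 to 77.5 in KDSH and 72.6 to 242 in KDEE, with medians of 68.6, 173, 50.4 and 123 CPM. Choroid plexus markers summed to 29.2 to 4406, 45.6 to 5949, 25.4 to 105 and 87.2 to 9710 CPM in the same order, with medians of 73.7, 74.6, 41.6 and 115 CPM. Their median log2 fold change with enrichment was 0.71 in WT mice and 3.86 in MSK1 KD mice. An unadjusted p under 0.05 (edgeR) was reached by 0 of 7 in WT mice and 7 of 7 in MSK1 KD mice. Within groups Homer1 ran against each of the 4 oligodendrocyte markers (r −0.70 to −0.63 over 21 mice), and Inhba did so less closely (−0.59 to −0.46). Over the full list of 5 oligodendrocyte markers, r was below −0.5 for 4 with Homer1 (median −0.64) and for 3 with Inhba (median −0.54). With the blood markers their r was 0.21 to 0.29 and 0.17 to 0.38, and with the choroid plexus markers −0.49 to −0.38 and −0.33 to −0.14. The 5 tested pituitary markers summed to as much as 244 CPM in KDSH, where the median was 2.32. For KDEE against KDSH 3 of these 5 lay lower, each with an unadjusted p under 0.05 (edgeR), and 2 lay higher. With their summed level r was 0.53 for Homer1, 0.49 for Nptx2 and 0.45 for Inhba, none passing adjustment. Without the 2 mice farthest from the median of that level r was −0.07, −0.03 and −0.04. The part of these cell types in the Homer1 and Inhba results was not tested.

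For Rgs2, WTSH mice 2, 5, 19 and 23 had 1662, 1482, 1603 and 1541 normalized read counts, and KDSH mice 1, 3, 8, 18 and 24 had 1644, 1503, 1604, 1590 and 1574. The WTEE mice ranged from 1582 through a median of 1775 to 2527 and the KDEE mice from 1521 through 1678 to 1838. Of the 12 enriched mice, 8 lay above all 9 standard-housed mice. The log2 fold change was 0.24 ± 0.097 (SE) for WTEE against WTSH (unadjusted p = 0.0194, adjusted p = 0.651, edgeR) and 0.16 ± 0.066 averaged over genotypes (adjusted p = 0.232, edgeR). In MSK1 KD mice it was 0.086 ± 0.090 (adjusted p = 0.681, edgeR). Without WTEE mouse 10, which was highest with 2527, the value in WT mice was 0.14 and the averaged one 0.12. In this mouse 6.57% of read pairs were ambiguous between genes, the highest share of the 21, and Rgs2 moved with that share between mice (r = 0.76, adjusted permutation p = 0.156), with r = 0.44 without the 2 mice farthest from its median.

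For Nptx2, Rheb, Plk2, Ptgs2 and Nrn1 no housing comparison had an unadjusted p under 0.05. Their log2 fold changes with enrichment lay between −0.05 and 0.11 in WT mice and between −0.13 and 0.09 in MSK1 KD mice, a range that includes the Rgs2 value in MSK1 KD mice. Nptx2 ranged from 906 to 1835 normalized read counts over the 21 mice, and in each group 1 mouse lay far from the rest (WTSH 19 low, WTEE 17, KDSH 8 and KDEE 15 high). Rheb ranged from 3806 to 4664 apart from WTEE mouse 10 with 5705. Its log2 fold change with enrichment in WT mice was 0.11 with this mouse and 0.030 without it. Like Rgs2, Rheb moved with the share of ambiguous read pairs between mice (r = 0.79, adjusted permutation p = 0.156). Without the 2 mice farthest from the median of that share r was 0.585. Ptgs2 ranged from 830 to 1428 and was highest in WTEE mouse 17. Plk2 ranged from 7500 to 9468 and Nrn1 from 6797 to 8568, the narrowest ranges of all at 1.26-fold each. In all 4 groups these 5 genes overlapped with their comparison groups.

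**Figure D2:**
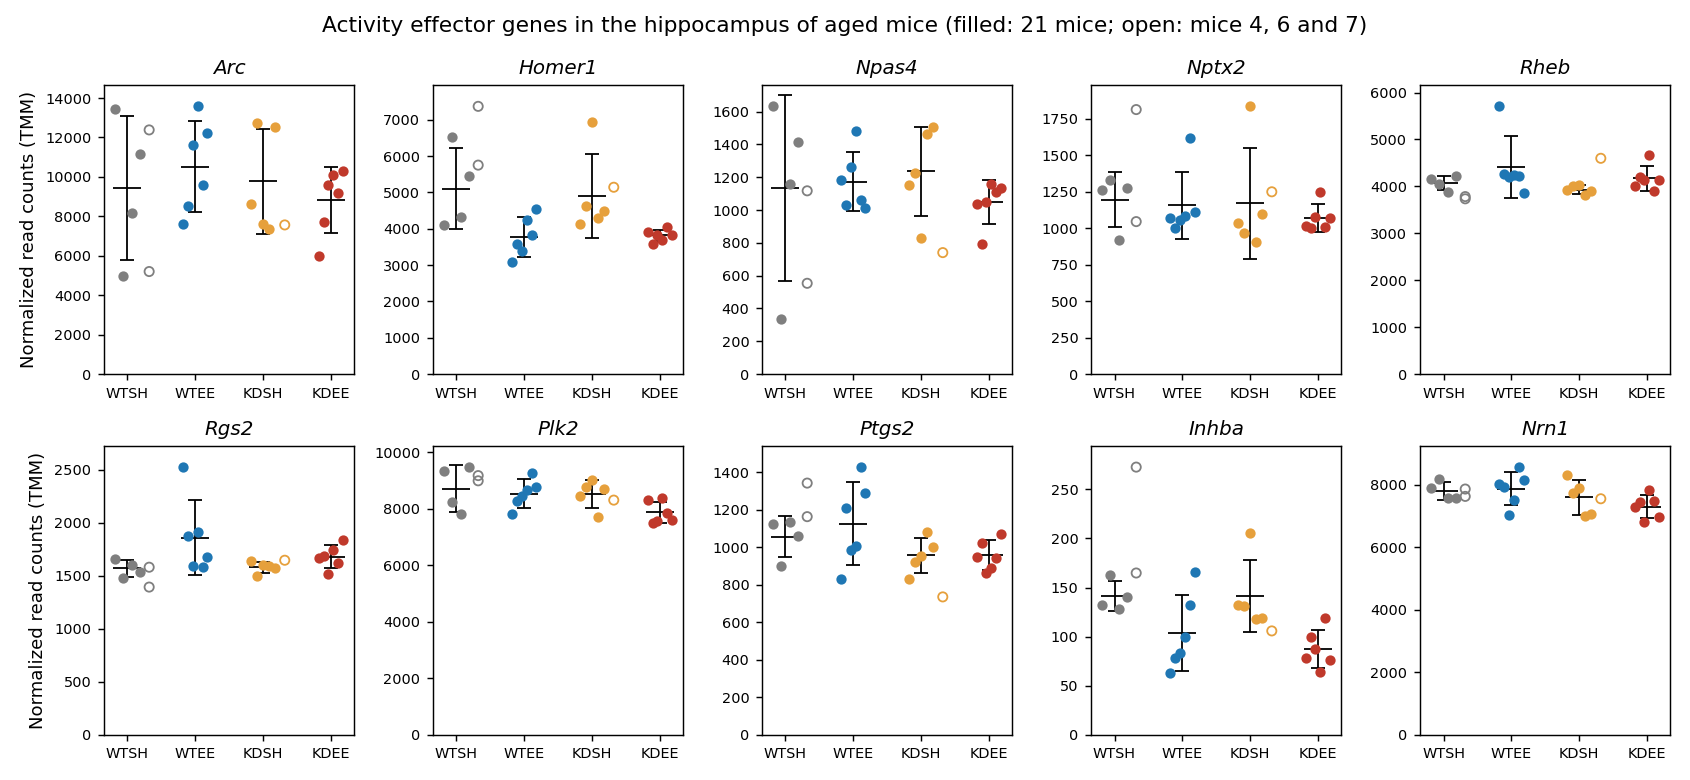
Normalized read counts (TMM, linear axis from 0) of the 10 activity effector genes, 1 point per mouse, with mean ± SD over the 21 mice as bars and the 3 mice left out by the study as open circles. Homer1 and Inhba lay lower in most enriched mice, Arc and Npas4 overlapped fully between groups, and WTEE mouse 10 stood apart for Rheb and Rgs2.

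None of the 10 members was called for WTEE against WTSH (adjusted p under 0.05 and absolute log2 fold change over 0.38), where 0% of the 20187 genes tested were called. At an unadjusted p under 0.05 the members were Homer1 and Rgs2, 2 of 10, beside 6.55% of all genes, and 4 of 10 lay lower in WTEE, beside 48.5% of all genes, with a median log2 fold change of 0.03, beside 0.01 for all genes. For KDEE against KDSH none was called, beside 0% of all genes, and Homer1 and Inhba (2 of 10) had an unadjusted p under 0.05, beside 11.6%. There 8 of 10 lay lower in KDEE, with a median log2 fold change of −0.12, beside 49.6% of all genes lying lower. Averaged over genotypes, none of the members and 0.00495% of all genes were called for enriched against standard housing, and 3 members (Homer1, Inhba and Rgs2) had an unadjusted p under 0.05, beside 18.9% of all genes. There 6 of 10 lay lower with enrichment, beside 48.1%. DESeq2's Wald test and the edgeR fit on all 24 mice each called Homer1 in this comparison (log2 fold change −0.39, adjusted p = 0.0283, and −0.46, adjusted p = 0.044, respectively). Both also called more of all genes than the main fit, with the counts given at the end. The mice added in the second fit were left out by the study, were all standard-housed and lay above every enriched mouse in Homer1. With the share of structural RNA as a covariate Homer1 was not called (−0.29, adjusted p = 0.472, edgeR).

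**Figure D3:**
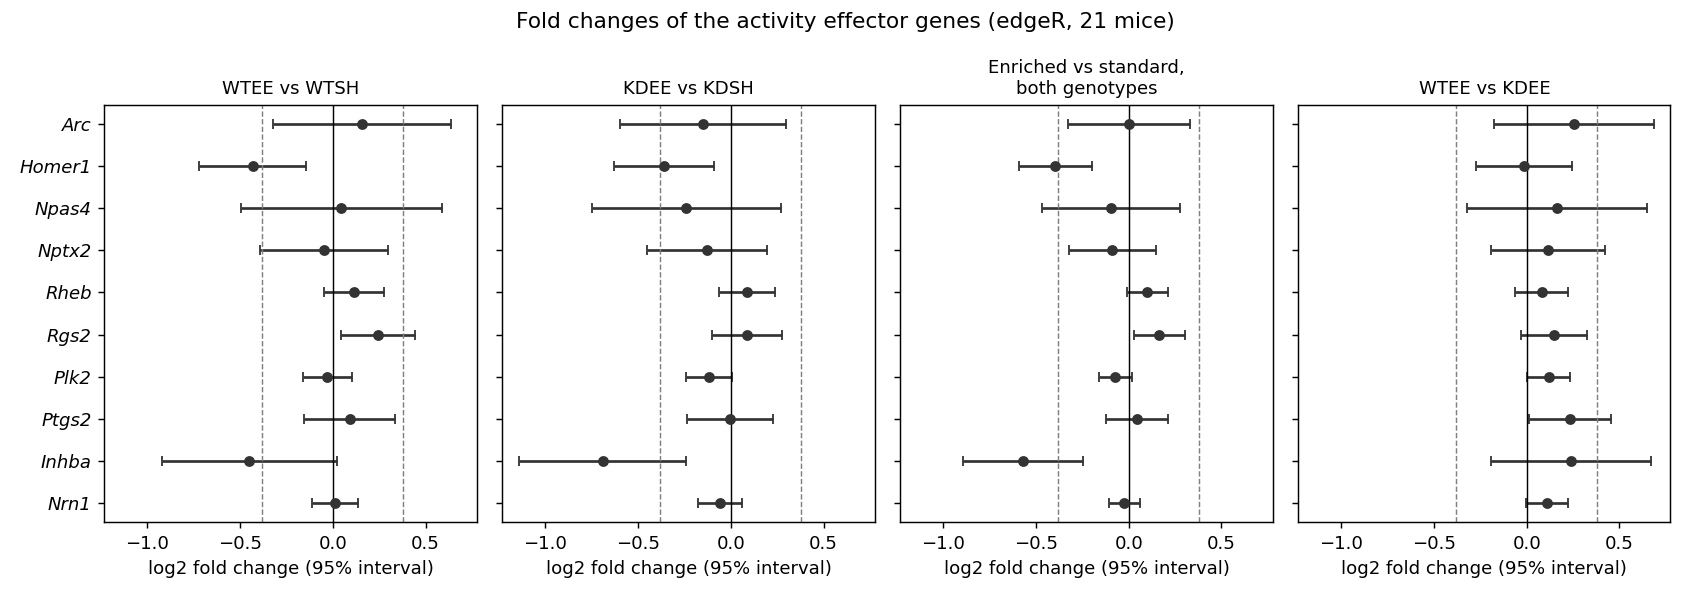
Log2 fold changes with 95% intervals (edgeR, 21 mice) of the activity effector genes for enrichment in WT mice, enrichment in MSK1 KD mice, enrichment averaged over genotypes, and WTEE against KDEE. Solid lines mark 0 and dashed lines ±0.38. Homer1 lies left of 0 with its interval in all 3 enrichment panels, while the intervals of Arc and Npas4 span 0 in every panel.

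Whether MSK1 kinase activity alters the response to housing was tested by the interaction, given further below. The comparisons between genotypes within 1 housing condition, given first, do not test it. For KDSH against WTSH no member was called, beside 0% of all genes, none had an unadjusted p under 0.05, beside 1% of all genes, and 6 of 10 lay lower in KDSH, beside 50.1% of all genes. For WTEE against KDEE no member was called, again beside 0%, and Ptgs2 (log2 fold change 0.23 ± 0.11, unadjusted p = 0.0382, adjusted p = 0.957, edgeR) and Plk2 (0.12 ± 0.056, unadjusted p = 0.0489, adjusted p = 0.957, edgeR) were 2 of 10 under an unadjusted p of 0.05, beside 4.99% of all genes. In this comparison 9 of 10 members lay higher in WTEE, with Homer1 as the exception, so that 1 of 10 lay lower, beside 50.5% of all genes, and the median log2 fold change was 0.13. Arc was 0.25 ± 0.21 and Npas4 0.16 ± 0.23 (adjusted p = 0.957 for both, edgeR). These counts are not independent of each other, since the members share mice and in part vary together. Without WTEE mouse 10 the log2 fold change for WTEE against KDEE was −0.0082 for Rheb (0.080 with it), 0.037 for Homer1 (−0.014) and 0.0405 for Rgs2 (0.15). The sign of Rheb therefore rested on that mouse, the only 1 of 28 settings in which it changed. That of Homer1, a value near 0, changed in 5 of 28 settings, among them the share of structural RNA as a covariate (0.15).

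The interaction, that is the enrichment effect in WT mice minus that in MSK1 KD mice, reached no call among the members, beside 0% of all genes, and no unadjusted p under 0.05, beside 3.26%. It was below 0 for 1 of 10 members, Homer1, beside 49% of all genes. The value was 0.31 for Arc (95% interval −0.35 to 0.97), 0.24 for Inhba (−0.41 to 0.89) and −0.07 for Homer1 (−0.47 to 0.32), all on the log2 scale. These intervals are wide and span 0, so that the values were not told apart from 0 with these 21 mice. Averaged over housing, all 10 members lay lower in MSK1 KD mice, beside 50.1% of all genes, with a median log2 fold change of −0.07, none was called, beside 0% of all genes, and Ptgs2 alone had an unadjusted p under 0.05 (−0.19 ± 0.081, unadjusted p = 0.031, adjusted p = 0.9996, edgeR), beside 1.9% of all genes.

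By fold change, structural RNA was also lower in MSK1 KD mice in these comparisons, short of any call. Of its 7 tested genes, 7 lay lower in MSK1 KD mice averaged over housing (median log2 fold change −1.41, 4 with an unadjusted p under 0.05, none called), and 7 of 7 lay higher in WTEE than in KDEE (median 1.40). Their summed level ranged from 363 to 26554 CPM in WTSH, 3901 to 14173 in WTEE, 498 to 5582 in KDSH and 357 to 8915 in KDEE. The medians were 850, 6916, 3046 and 2196 CPM in the same order, so that under standard housing the WT median lay below that of MSK1 KD mice. The high WTSH value was that of mouse 2, with 2.57% structural RNA, where WTSH mice 5, 19 and 23 had 0.0355%, 0.123% and 0.0497%. With the share of structural RNA as a covariate, 9 of 10 members lay lower in MSK1 KD mice, with Npas4 as the exception. For WTEE against KDEE 9 of 10 lay higher under this covariate, and there the exception was Npas4 in place of Homer1. The part of structural RNA in these counts was not tested further.

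The 3 mice left out by the study are given on the same scale, after all 24 libraries were normalized together. WTSH mouse 7 had 7369 normalized read counts of Homer1 and 273 of Inhba, above all other mice for both. It had 5202 of Arc and 554 of Npas4, above WTSH mouse 5 only, and 1813 of Nptx2, below KDSH mouse 8 only. WTSH mouse 4 had 5752 of Homer1 and 12383 of Arc, and KDSH mouse 6 had 5143 of Homer1, 7565 of Arc and 106 of Inhba. All 3 lay above every enriched mouse in Homer1. In WTSH mice 4 and 7, structural RNA took 23.2% and 22.9% of the counts, and its part in these levels was not tested.

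Covariation between mice was measured on log2 CPM after the mean of each group was removed, over 45 pairs of members. A single pair passed adjustment in both Pearson's and Spearman's test, Homer1 and Inhba (r = 0.70, permutation p = 4e-04, adjusted over the pairs 0.018; rho = 0.67, adjusted permutation p = 0.041). Without the 2 mice farthest from the median of Homer1 r was 0.66, and with 1 mouse left out in turn it ranged from 0.62 to 0.73. Within the groups r was 0.94 in WTSH, 0.87 in WTEE, 0.95 in KDSH and 0.37 in KDEE, each over at most 6 mice. Without WTEE mouse 10, WTSH mouse 5 and KDSH mouse 8 it was 0.52.

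Arc and Npas4 moved together about as closely (r = 0.71, permutation p = 0.00546, adjusted 0.097; rho = 0.61, adjusted permutation p = 0.131), but the pair did not pass adjustment and r dropped to 0.51 without WTSH mouse 5, the lowest for both genes. Nptx2 went with Plk2 (r = 0.61, permutation p = 0.00948, adjusted 0.107) and with Homer1 (r = 0.60, permutation p = 0.04, adjusted 0.18), and the second value was 0.29 without KDSH mouse 8. Rheb and Rgs2 had the largest r of all pairs, 0.76 (permutation p = 0.0338, adjusted 0.18), which was 0.23 without WTEE mouse 10 and therefore rested on that mouse. For Homer1, r was −0.20 with Arc (permutation p = 0.496, adjusted 0.657) and −0.58 with Npas4 (permutation p = 0.0315, adjusted 0.18), and without WTSH mouse 5 these were 0.09 and −0.39. Without WTEE mouse 10, WTSH mouse 5 and KDSH mouse 8 they were 0.27 and 0.09.

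**Figure D4:**
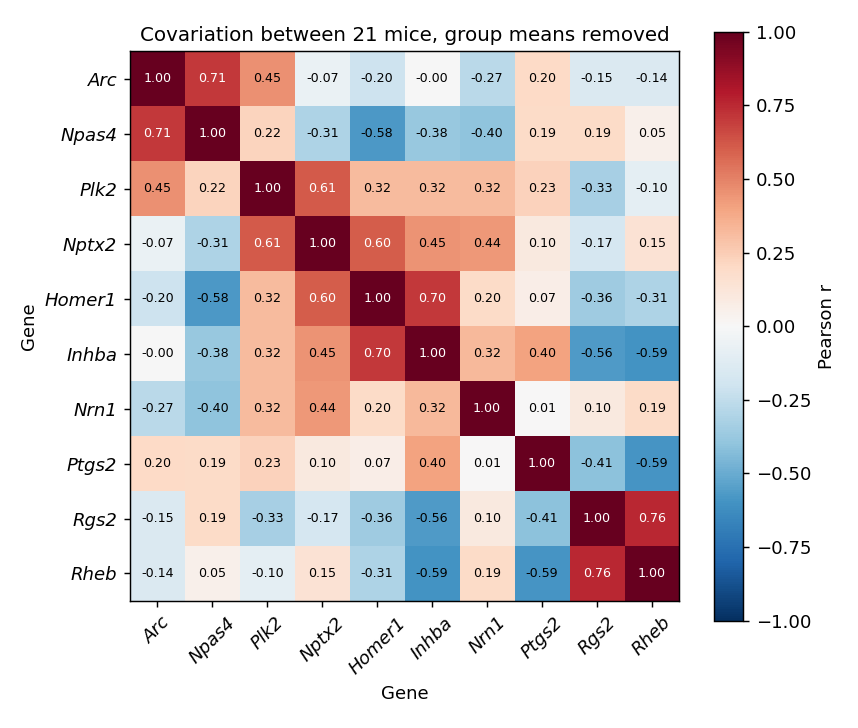
Pearson's r between the 10 activity effector genes over 21 mice, after group means of log2 CPM were removed (colour scale from −1 to 1, value in each cell). The pairs Arc and Npas4 (0.71), Homer1 and Inhba (0.70) and Rheb and Rgs2 (0.76) have the highest values. Homer1 and Npas4 are at −0.58, which was 0.09 without WTEE mouse 10, WTSH mouse 5 and KDSH mouse 8.

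**Figure D5:**
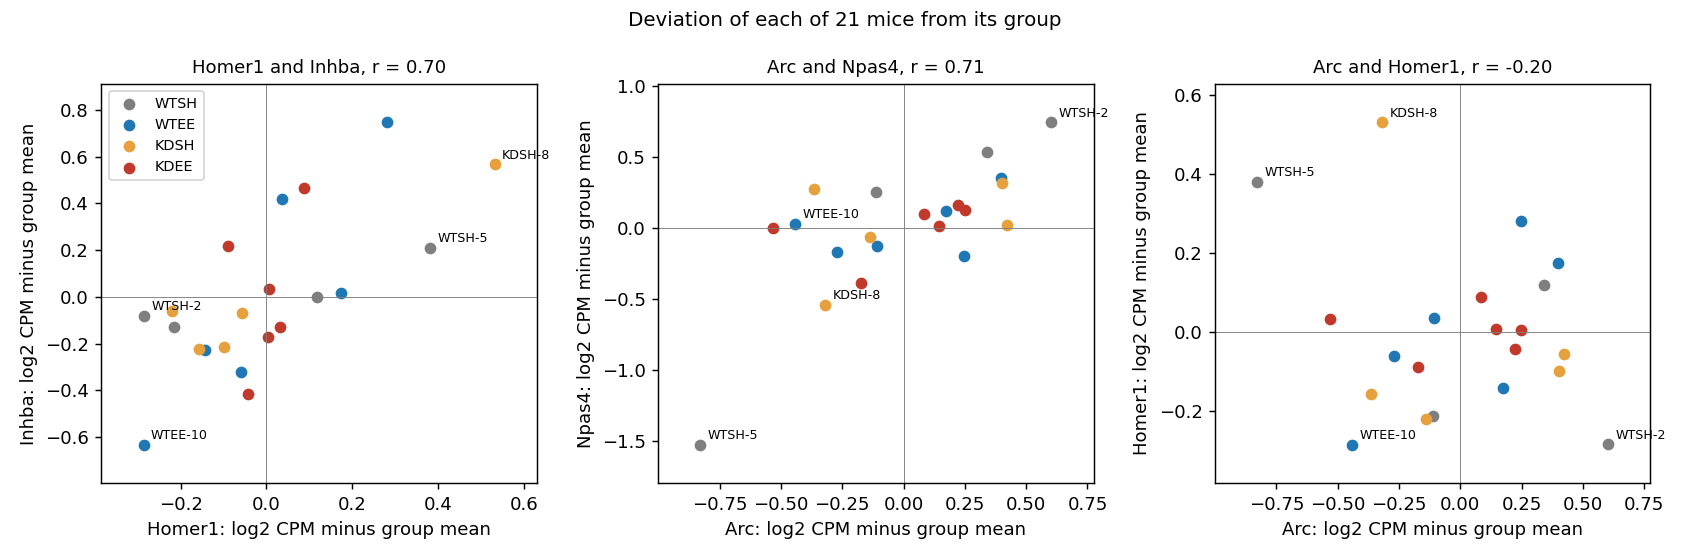
Deviation of each of the 21 mice from its group mean in log2 CPM for Homer1 against Inhba, Arc against Npas4 and Arc against Homer1, coloured by group, with 4 mice named. WTSH mouse 5 is far below its group in Arc (−0.83) and Npas4 (−1.53) yet above it in Homer1, and KDSH mouse 8 is highest in Homer1 (0.53).

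The genes most like each member across mice differed from member to member. These genes were ranked by r over 20186 other genes and 21 mice that share libraries and depth, so their values are a description. Nearest to Arc were Nr4a1 (0.97), an orphan nuclear receptor, the zinc finger factor Egr2 (0.95), Fos (0.92), the MAP kinase phosphatase Dusp6 (0.91) and the kinase Sik1 (0.87), all of them immediate early genes. Without WTSH mouse 5 these 5 values ranged from 0.85 to 0.96. Nearest to Npas4 were the phosphatase Dusp1 (0.88), Btg2 (0.88), 6430571L13Rik (0.86), Fos (0.84) and Gbp11 (0.84), and without WTSH mouse 5 Dusp1 stood at 0.63 and Gbp11 at 0.24. Nearest to Homer1 were the calcium sensor Hpcal4 (0.87), the Integrator subunit Ints8 (0.86), the histone demethylase Kdm7a (0.85), Ankrd6 (0.84) and Txlng (0.82). Nearest to Nptx2 were the GTPase Rab15 (0.87), the AMPA receptor auxiliary protein Cnih3 (0.84), Gpr3 (0.83), Grasp (0.77) and Tbc1d20 (0.72).

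The remaining members had still other neighbours. Plk2 was closest to Sh2d5 (0.89), the dendritic kinesin Kif17 (0.85), Rnft2 (0.84), the NMDA receptor subunit Grin1 (0.83) and Lingo1 (0.83). Rheb was closest to Ube2j2 (0.97), the proteasome subunit Psmb10 (0.96), Timm23 (0.96), the peroxiredoxin Prdx2 (0.96) and the initiation factor subunit Eif3h (0.96), which without WTEE mouse 10 stood at 0.83 to 0.92. Rgs2 was closest to the splicing proteins Snrpd1 (0.90) and Snrnp40 (0.89), to Ap4s1 (0.89), Tram1l1 (0.89) and 6330403K07Rik (0.88), which stood at 0.62 to 0.68 without that mouse. Ptgs2 was closest to Gldn (0.87), Adgrg3 (0.85), the activin-type receptor Acvr1c (0.83), Slco5a1 (0.83) and Nxpe4 (0.82). Inhba was closest to Kri1 (0.83), Ggcx (0.83), Zfp84 (0.82), Hmcn1 (0.81) and Gm28294 (0.81), and Nrn1 to Fam19a1 (0.81), Sertm1 (0.77), the dopamine receptor Drd5 (0.75), Pla2g2f (0.75) and Fam188a (0.74).

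Each member was also set against 18 measures of depth, RNA quality and cell type markers, 180 relations in all, and none passed adjustment. The smallest p was that of Nptx2 with the summed thalamus markers (r = −0.68, permutation p = 0.00078, adjusted 0.116; rho = −0.71, adjusted permutation p = 0.15; −0.48 without the 2 farthest mice). Plk2 followed with the CA1 pyramidal neuron markers (r = 0.71, permutation p = 0.00163, adjusted 0.116; rho = 0.60, adjusted permutation p = 0.186; 0.53 without the 2 farthest mice) and the choroid plexus markers (r = −0.65, permutation p = 0.00193, adjusted 0.116; rho = −0.68, adjusted permutation p = 0.15; −0.55 without the 2 farthest mice).

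The same measure was taken for 2 lists of other activity genes. Of 23 activity-regulated transcription regulators, 13 had r over 0.5 with Arc, 8 with Npas4 and 3 with Homer1, where 2.47%, 2.52% and 6.48% of all genes had such an r. Of 30 other activity-regulated effectors, 11 had r over 0.5 with Arc, 3 with Npas4 and 3 with Homer1. The 13 regulators close to Arc were split for Homer1, with r below 0 for 9 and above 0 for 4, from −0.70 (Btg2) to 0.50 (Per1). Over all 23 regulators the median r was 0.55 with Arc and 0.04 with Homer1. These counts describe 21 libraries, and genes of a list are not independent of each other.

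None of the listed genes passed the threshold between groups. Averaged over genotypes, 7 of the 23 transcription regulators lay higher with enrichment and 16 lower, beside 48.1% of all genes lying lower (median log2 fold change −0.11, all genes 0.01), with 5 under an unadjusted p of 0.05, beside 18.9%, and the smallest p for Nr4a3 (−0.29, adjusted p = 0.19, edgeR) and Fosl2 (−0.28, adjusted p = 0.214). For WTEE against KDEE, 20 of the 23 lay higher in WTEE, beside 50.5% of all genes lying lower (median 0.13, none with an unadjusted p under 0.05, beside 4.99%), among them Junb (0.36, adjusted p = 0.957, edgeR). Of the 30 other effectors, 19 lay higher in WTEE than in KDEE and 5 had an unadjusted p under 0.05, beside the same 4.99%, with Gadd45b (0.38, adjusted p = 0.362, edgeR) and the receptor feedback inhibitor Errfi1 (0.21, adjusted p = 0.418) first. Averaged over genotypes, 16 of these 30 lay higher with enrichment and 14 lower, 4 with an unadjusted p under 0.05, beside 18.9%, with Frmd6 (−0.17, adjusted p = 0.196, edgeR) and the pentraxin Nptx1 (−0.24, adjusted p = 0.231) first.

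Among partners of the members, 33 of 34 listed genes were tested. These are the other Homer proteins, Shank scaffolds, mTOR components, prostaglandin and activin receptors and related proteins. Averaged over genotypes, 26 of 33 lay lower with enrichment, with a median log2 fold change of −0.09, beside 48.1% of all genes lying lower, and 7 of 33 had an unadjusted p under 0.05, 6 lower and 1 higher, near the 18.9% of all genes. Among the 6 was Acvr2a (−0.17, adjusted p = 0.218, edgeR), a receptor for activin. Of 8 genes of the MSK1 and CREB group, 7 lay lower with enrichment, beside 48.1% of all genes, and 3 had an unadjusted p under 0.05, beside 18.9%, with the smallest p for Creb1 (−0.12, adjusted p = 0.214, edgeR) and Crtc2 (−0.11, adjusted p = 0.229), and none passed the threshold.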

How the data were processed

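Hippocampal poly(A) RNA of 24 mice was analysed. Before deposit, the authors ran Skewer for trimming and FastQC 0.11.3 for quality, aligned reads to GRCm38 with STAR 2.5 and counted unique pairs per gene symbol with HTSeq 0.6.1p1, without strand, and deposited raw counts. Steps before the counts could not be repeated, and PCR copies of a fragment count separately. HTSeq's summary rows were left out. Groups came from the labels, and 1 library per mouse means that p values measure the spread between mice. The paper describes moving whole cages into enrichment, and the cage of each mouse is not known here. Mice that shared a cage may therefore be counted as independent, which limits the p values and intervals of the housing comparisons.

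The test was the quasi-likelihood one in edgeR 4.0.16 (R 4.3.3), on the counts, after TMM normalization and its default filter, with 4 groups in 1 model and Benjamini-Hochberg adjustment over 20187 genes. A call needed an adjusted p under 0.05 together with a log2 fold change beyond ±0.38. Correlations used log2 CPM (prior count 2) minus group means, tested with 100000 two-sided permutations within groups, for which the smallest p value is 1e-05. Alternatives were DESeq2 1.42.0, other filters and normalizations, all 24 libraries, only the groups compared, the share of structural RNA as a covariate and leaving out each mouse. Gene positions and exon lengths came from GENCODE's GRCm38 annotation (95.2% of symbols matched) and promoters from RefSeq. The tests were first checked on simulated data.

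The members and lists were chosen with earlier results of these data known. The genes named are the 10 members, for each member the 5 genes with the highest r, pairs of members past adjustment, the 2 genes with the smallest p per list and comparison, and Rps6ka5, and a few values under this rule are not reported here. Pairs that did not pass adjustment, the regulators at the ends of the range of r with Homer1 (Btg2, Per1) and the promoters shown were chosen after their values were seen.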

Additional observations from a re-analysis of the deposited data

Results flagged for a closer look

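In 40 groups of values (10 genes in 4 groups of mice), 9 held a mouse whose distance to its neighbour was large against the range of its group by Dixon's test at the 95% level, where chance gives about 1 in 20 groups. KDSH mouse 8 was highest in its group for Homer1 (6943 normalized read counts, next mouse 4617), Inhba (206, next 132) and Nptx2 (1835, next 1097). WTEE mouse 10 was highest in its group for Rheb (5705, next 4274) and Rgs2 (2527, next 1917). Nptx2 also had WTSH mouse 19 far below its group (917, next 1262), WTEE mouse 17 far above (1618, next 1108) and KDEE mouse 15 far above (1250, next 1078). Npas4 in KDEE mouse 12 was 793, with the next mouse at 1038.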

How the results depend on the processing

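No paired analysis was possible because no mouse number occurs in more than 1 group. Of 623 values of 21 fold changes under the alternatives, 610 kept their direction and their side of the threshold. These 21 are only part of the members' fold changes, namely those with an unadjusted p under 0.05 (edgeR) and others picked by gene. Outside them, values near 0 changed sign more often. Ptgs2 for KDEE against KDSH (−0.0022) did so in 13 of 28 settings. Arc averaged over genotypes (0.003) did so in 13 of 27, and Inhba for KDSH against WTSH (0.0023) in 7 of 28. For enriched against standard housing averaged over genotypes, 1 gene was called. DESeq2 called 41, all 24 libraries gave 15, the structural RNA share as a covariate 0, leaving out WTSH-5 and KDSH-8, or these and WTEE-10 (both chosen after seeing the data), 0, and leaving out 1 mouse in turn 0 to 6. The counts were 0 without WTSH mouse 5 or 19, 6 without WTEE mouse 21, and 2 without KDSH mouse 18 or KDEE mouse 20. Members called went from 0 to 1, Homer1, under DESeq2 and with all 24 libraries. In comparisons with 0 calls, DESeq2 called 2 genes for WTEE against WTSH, 14 for KDEE against KDSH, 118 for WTEE against KDEE and 20 for the interaction. All 24 libraries gave 1 for WTEE against WTSH, fitting only the groups compared gave 1 for KDEE against KDSH, and WTEE against WTSH ranged from 0 to 1 with 1 mouse left out (1 without WTEE mouse 13). The cause was not tested. The signs that reversed among the 21 are given next, and as no member was called in any main comparison, all belonged to uncalled values. For WTEE against WTSH, Arc was −0.053 without WTSH-5, and with KDSH-8 also left out (−0.053 to 0.37 with 1 mouse left out in turn), and Npas4 was −0.26 under both, −0.26 with WTEE-10 left out too, −0.11 with the covariate and −0.032 without WTEE mouse 16. Npas4 for WTEE against KDEE was −0.027 with the covariate. In the interaction, Inhba was −0.043 with all 24 libraries, and Homer1 was 0.12 with the covariate and ranged from −0.23 to 0.062 with 1 mouse left out in turn (0.062 without WTSH mouse 5). The r of Arc and Homer1 ranged from −0.33 to 0.091 with 1 mouse left out in turn (0.091 without WTSH mouse 5) and was 0.27 without WTEE-10, WTSH-5 and KDSH-8, where that of Homer1 and Npas4 was 0.094 (−0.66 to −0.39 with 1 mouse left out in turn). Precision was lowest for Inhba, with 62.6 to 206 normalized read counts per mouse.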
